A study of Rattus norvegicus with 4 samples.

Results

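The 10 genes described here are the ligands and receptors of the vascular endothelial growth factor (VEGF) and angiopoietin families: the ligands Vegfa, Vegfb, Vegfc, Vegfd, Angpt1 and Angpt2, and the receptors Flt1, Kdr, Flt4 and Tek. They were chosen by symbol, all 10 were found among the 32883 genes of the deposited matrices, and the rule that lists them uses no measured value. They were measured in nuclei of snap-frozen adipose tissue from untreated male Dahl salt-sensitive rats (strain SS/HsdMcwiCrl) aged 16 weeks, fed a Teklad chow. The study compared 2 tissues with 2 libraries each: perivascular fat of the thoracic aorta (taPVAT) and subscapular brown adipose tissue (BAT). The labels name no drug, diet challenge or engineered allele in any group, so the groups differ by tissue. The series names 2 rats for each tissue, and the labels do not say whether the same rat gave both tissues.

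VEGF ligands and angiopoietins are secreted proteins that act on receptor tyrosine kinases at the endothelial surface. Vegfa acts through Kdr, its main signalling receptor, and also binds Flt1, which takes up ligand with high affinity and signals weakly. Vegfb binds Flt1. Vegfc and Vegfd act through Flt4, the receptor of lymphatic vessels, and after processing also through Kdr. Angpt1 activates Tek (also called Tie2) and steadies vessels, and Angpt2 competes with it for the same receptor. Brown and perivascular fat are densely supplied with capillaries, and adipocytes are a known source of Vegfa.

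Values are unique molecular identifiers (UMIs, counts of distinct captured transcripts) summed over all nuclei of a class in a library and given as counts scaled to the class total (CPM), UMIs per 1000000 of that class. CPM values were not corrected for transcript length, so levels are compared between classes and libraries for the same gene and never between genes. Where a sentence lists 4 values, they are in the order taPVAT replicate 1, taPVAT replicate 2, BAT replicate 1 and BAT replicate 2. Nuclei were sorted into adipocyte-like, blood endothelial-like, lymphatic endothelial-like, mural-like (pericytes and smooth muscle) and fibroblast-like classes by marker genes, none of which is among the 10 genes, and the classes are named below without the suffix. The 4 libraries held 14765 to 44637 barcodes and 63654436 to 158140959 UMIs. After filtering, 38350, 11520, 28151 and 22695 nuclei were kept. Of these, adipocytes numbered 26864, 8776, 20900 and 16687, and blood endothelial nuclei 1843, 450, 1348 and 1289. Mural nuclei numbered 539, 246, 428 and 439, and fibroblasts 703, 479, 630 and 377. Lymphatic endothelial nuclei numbered 159 and 46 in taPVAT but 8 and 10 in BAT, too few for a test.

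The classes were checked with 24 genes that took no part in the sorting. Of these, 18 were highest in their own class in all 4 libraries and 21 in at least 3. Ucp1, the uncoupling protein of brown fat, ran from 453 to 1532 CPM in adipocytes. Fasn was in no library highest in adipocytes, and Nr2f1 in none highest in lymphatic nuclei. Fgl2 was highest in lymphatic nuclei in 2 libraries. Of the 4 lymphatic genes checked, 2 were highest in their own class in at least 3 libraries. The median nucleus of the 4 other classes held 1422 to 2152.5 UMIs against 2848 to 4996.5 in adipocytes, and 14.8% to 20.8% mitochondrial UMIs against 6.11% to 9.72%. Adipocyte marker transcripts were also counted in the other classes, and the part of free RNA, doublets and own expression in this was not tested. The summed adipocyte markers were at 3562 to 7521 CPM there against 20625 to 22396 in adipocytes, although the sorting limited them: a further 3009, 221, 1369 and 1004 nuclei with markers of another class and many adipocyte transcripts were left out. Pairs of libraries shared 126 to 424 barcode sequences, 0.426% to 1.29% of a library.

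**Figure D1:**
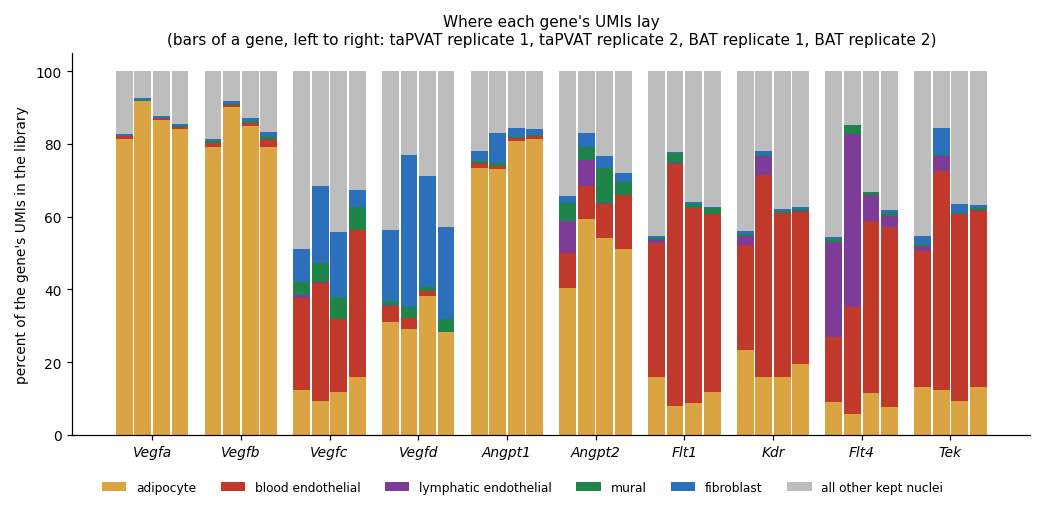
Share of each gene's UMIs (percent, vertical axis) that lay in each class, in 4 stacked bars per gene for the 4 libraries; grey is every other kept nucleus, unsorted nuclei included. Vegfa, Vegfb and Angpt1 lay mostly in adipocytes (73.2% to 91.7% of UMIs), and Flt1, Kdr and Tek had 28.6% to 66.8% of their UMIs in blood endothelial nuclei. Adipocytes were also most of the kept nuclei (26864 of 38350, 8776 of 11520, 20900 of 28151 and 16687 of 22695).

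Vegfa, the principal angiogenic ligand, was an adipocyte transcript in both fats. Its level in adipocytes was 715, 852, 805 and 745 CPM, and adipocytes held 81.3%, 91.7%, 86.4% and 84.0% of all Vegfa UMIs of their library. Values of taPVAT and BAT overlapped, and all 4 lay close together. In blood endothelial nuclei the level was 214, 94.6, 217 and 163 CPM, and in mural nuclei 202, 140, 214 and 195. Fibroblasts reached 329, 221, 305 and 310 CPM. In BAT the few lymphatic nuclei (8 and 10) were second to adipocytes, at 383 and 326 CPM. Against adipocytes the difference was -2.47 ± 0.26 (SE, log2) in blood endothelial nuclei (adjusted p = 1.35e-05, edgeR quasi-likelihood test with library as a term), -2.27 ± 0.18 in mural nuclei (adjusted p = 2.71e-08) and -1.80 ± 0.18 in fibroblasts (adjusted p = 4.09e-06). The Vegfa level of blood endothelial nuclei was 11.1% to 30% of the adipocyte level in the same library. For 6 adipocyte genes left out of the sorting, the median was 27.2% to 53.5% in the same nuclei. Single genes of the 6 ran from 4.74% to 164% there, and Fasn, in no library highest in adipocytes, was among them. T or NK lymphocyte nuclei had 302, 83.9, 325 and 71.9 Vegfa CPM from 4 to 59 UMIs. In blood endothelial nuclei Vegfa lay below the median of those 6 genes, but inside their range, in 4 of 4 libraries. The part of free adipocyte RNA in it was not tested. A Vegfa UMI was seen in 84.5%, 95.4%, 90.8% and 83.3% of adipocytes, and in 49.8%, 55.7%, 53.9% and 50.9% once each nucleus was thinned to 1000 UMIs. In T or NK nuclei, at a median depth of 1316.5 to 1589 UMIs against 2848 to 4996.5 in adipocytes, the thinned shares were 35.9%, 9.09%, 23.8% and 7.89%.

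Vegfb, a ligand of Flt1 that has been linked to fatty acid uptake, also lay mostly in adipocytes, with 79.1%, 90.2%, 85.0% and 79.0% of its UMIs. Adipocytes were most of the kept nuclei and the deepest class, so the Vegfa and Vegfb shares follow class size as well as level. The adipocyte level was 49.2, 42.9, 48.6 and 30.6 CPM. It was lower in blood endothelial nuclei by 1.27 ± 0.20 (log2), a called difference (adjusted p = 0.000274, edgeR), and the levels there were 24.8, 14.6, 20.1 and 21.8. These were 50.4%, 34.1%, 41.4% and 71.2% of the adipocyte level, beside medians of 53.5%, 27.2%, 40.4% and 31.6% for the 6 adipocyte genes left out of the sorting. Vegfb lay above that median in 3 of 4 libraries and inside the range of the 6 genes in each. The part of free adipocyte RNA in it was not tested. Mural nuclei had 29.5, 11.8, 36.8 and 27.4 CPM and fibroblasts 26.01, 18.1, 28.1 and 33.9. Fibroblasts were below adipocytes in 3 of 4 libraries and above them in BAT replicate 2, and mural nuclei were below in 4 of 4. Lymphatic nuclei of BAT, only 8 and 10 in number, had 76.7 and 54.3 Vegfb CPM, above adipocytes of the same libraries. In the fits, mural nuclei and fibroblasts were lower than adipocytes by 0.88 ± 0.24 and 1.09 ± 0.23 (log2, adjusted p = 0.00803 and 0.0015, edgeR).

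Vegfc, the main ligand of Flt4, was spread over the vascular and stromal classes and nearly missing from adipocytes. Blood endothelial nuclei had 141, 143, 79.3 and 103 CPM, fibroblasts 117, 79.2, 126 and 36.7, and mural nuclei 65.5, 41.3, 66.4 and 45.7. Adipocytes had 1.94, 0.741, 1.12 and 1.54. The difference from adipocytes was 6.19 ± 0.25 in blood endothelial nuclei (log2, adjusted p = 2.43e-08, edgeR), 5.70 ± 0.33 in fibroblasts (adjusted p = 1.98e-08) and 5.18 ± 0.26 in mural nuclei (adjusted p = 1.3e-10). Fibroblasts and blood endothelial nuclei did not differ beyond the spread in this fit (-0.43 ± 0.27, adjusted p = 0.255, edgeR). That comparison turned into a call for Vegfc without the low-count filter (-0.47, adjusted p = 0.0156), with nuclei of at least 1000 genes (-0.89, adjusted p = 0.0302), with a stricter marker sorting (-0.69, adjusted p = 0.0272) and without BAT replicate 1 (-0.84, adjusted p = 0.0203).

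Within blood endothelial nuclei Vegfc was higher in arterial ones than in those without arterial markers, and nuclei with a single arterial marker entered neither side. Nuclei with at least 2 of the arterial markers Gja4, Gja5, Sema3g, Efnb2, Bmx, Sox17 and Jag1 had 384, 353, 209 and 235 Vegfc CPM from 214, 69, 115 and 85 UMIs. Nuclei with none of these markers had 65.5, 36.9, 22.9 and 54.9. The arterial level was 5.87, 9.56, 9.14 and 4.29 times the other, above it in 4 of 4 libraries. Arterial nuclei numbered 282 and 82 in taPVAT and 237 and 170 in BAT. No test was run on the subdivisions. Here and below they were made by counting markers without allowing for depth, so a shallow arterial nucleus can fall among those with none. The part of depth in the differences between subdivisions was not tested.

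Vegfd, the second Flt4 ligand, was a fibroblast transcript. Fibroblasts had 59.1, 53.4, 48.1 and 49.4 CPM, 35 to 75 UMIs per library. Mural nuclei had 2.37 to 7.87, blood endothelial nuclei 0 to 5.85 and adipocytes 0.676 to 1.15. Fibroblasts were above adipocytes by 5.55 ± 0.22 (log2, adjusted p = 6.05e-10, edgeR) and above blood endothelial nuclei by 4.16 ± 0.41 (adjusted p = 1.79e-05). Since adipocytes were so many, they still held 28.3% to 38.2% of the Vegfd UMIs of a library, beside 19.6% to 41.8% in fibroblasts.

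Angpt1, the activating ligand of Tek, had its highest level in fibroblasts and most of its UMIs in adipocytes. Fibroblasts had 336, 312, 522 and 277 CPM and adipocytes 117, 58.0, 232 and 185. Fibroblasts were higher in 4 of 4 libraries, by 1.05 ± 0.23 (log2, adjusted p = 0.00176, edgeR). Adipocytes nevertheless held 73.5%, 73.2%, 80.8% and 81.3% of the Angpt1 UMIs, against 1.49% to 8.48% in fibroblasts. Adipocytes were also most of the kept nuclei and the deepest class, so these shares follow class size as well as level. Mural nuclei, a textbook source of Angpt1, had 110, 57.1, 122 and 70.5 CPM and were below adipocytes by 0.84 ± 0.20 (log2, adjusted p = 0.0029, edgeR). With nuclei of at least 1000 genes this last call was lost (-0.53, adjusted p = 0.0552). The mural level was 94.5% and 98.4% of the adipocyte level in the taPVAT libraries, against 52.7% and 38.1% in those of BAT. Among mural nuclei, those with more smooth muscle than pericyte markers had 216, 61.3, 186 and 95.9 Angpt1 CPM, and pericytes had 76.7, 56.2, 76.0 and 54.8. The smooth muscle value was the higher in 4 of 4 libraries, but in taPVAT replicate 2 it rested on 2 UMIs.

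Angpt2, the context-dependent antagonist of Angpt1, had its higher levels in lymphatic endothelial nuclei of taPVAT and in smooth muscle nuclei. Lymphatic nuclei of taPVAT had 170 and 142 CPM from 50 and 15 UMIs, with 95% Poisson intervals of 126 to 224 and 79.7 to 235. The few lymphatic nuclei of BAT gave 1 UMI and 0 UMIs, and the 0 allows up to 163 CPM. Smooth muscle nuclei had 115, 123, 110 and 43.6 CPM from 16, 4, 26 and 10 UMIs, and pericytes 10.5, 8.98, 8.22 and 9.13 from 4 to 7 UMIs. The smooth muscle level was 10.96, 13.6, 13.3 and 4.78 times that of pericytes. Blood endothelial nuclei, the classical source of Angpt2 in sprouting vessels, had 19.6, 21.4, 13.6 and 27.2 CPM. They were above adipocytes by 2.73 ± 0.20 (log2, adjusted p = 7.88e-07, edgeR), and mural nuclei were not shown to differ from them (0.51 ± 0.33, adjusted p = 0.291). These intervals cover counting error only.

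**Figure D2:**
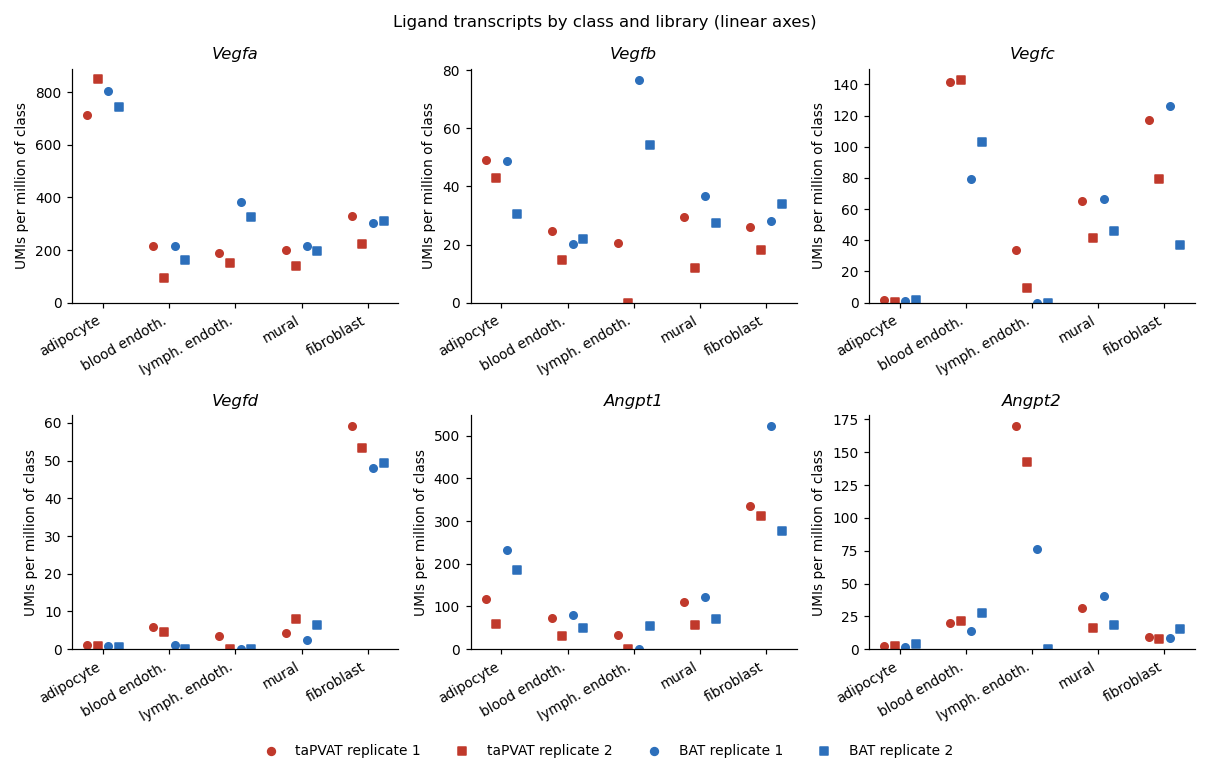
Level of the 6 ligands (UMIs CPM of the class, linear vertical axis from 0) in 5 classes; each point is 1 library, red for taPVAT and blue for BAT, circles for replicate 1 and squares for replicate 2. Vegfa stood highest in adipocytes in all 4 libraries and Vegfd and Angpt1 in fibroblasts; the lymphatic points of BAT rest on 8 and 10 nuclei.

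The endothelial receptors Flt1, Kdr and Flt4 are shown with the 250 bases before their RefSeq start (rat build GRCr8; the counts were made on Rnor_6.0), because these 3 genes were higher in blood endothelial nuclei than in every other fitted class. Capitals mark GGAAG on either strand (CTTCC on the printed strand), a form of the core that ETS factors of endothelial cells bind. Other forms of that core were not searched. The table held windows for 7 of the 10 genes, and Angpt1, Angpt2 and Tek are named only. Each window is printed 5′ to 3′ along the gene.
Flt1, chr12:12333180-12333429, plus strand: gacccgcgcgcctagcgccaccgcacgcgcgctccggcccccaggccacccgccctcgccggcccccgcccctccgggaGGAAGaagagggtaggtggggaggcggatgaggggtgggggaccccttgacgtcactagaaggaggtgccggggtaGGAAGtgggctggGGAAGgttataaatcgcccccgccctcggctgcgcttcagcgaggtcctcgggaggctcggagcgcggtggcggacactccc
Kdr, chr14:32571813-32572062, plus strand: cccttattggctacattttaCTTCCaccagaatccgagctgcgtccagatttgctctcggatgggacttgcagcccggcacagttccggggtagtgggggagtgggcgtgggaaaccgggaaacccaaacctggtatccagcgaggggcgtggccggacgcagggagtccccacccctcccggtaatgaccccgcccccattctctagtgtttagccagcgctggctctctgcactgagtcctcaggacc
Flt4, chr10:34414584-34414833, plus strand: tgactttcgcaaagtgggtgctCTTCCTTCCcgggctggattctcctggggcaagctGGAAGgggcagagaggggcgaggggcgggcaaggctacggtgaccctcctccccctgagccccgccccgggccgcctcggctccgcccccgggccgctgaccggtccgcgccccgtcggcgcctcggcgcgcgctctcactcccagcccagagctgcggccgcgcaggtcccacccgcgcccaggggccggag
This form of the core occurred 3 times before Flt1, 1 time before Kdr and 3 times before Flt4, where a pair of matches shares 1 base. It also occurred 3 times before the fibroblast gene Vegfd, 1 time in the second of the 2 Vegfa windows, and not in the first Vegfa window or those of Vegfb and Vegfc. It is a common match, present in 63.3% of the 33469 windows of the same length in the table. The Flt1 window also held TGACGTCA, which reads the same on both strands, from 124 to 117 bases before the start. That motif occurred in 1.59% of all windows and in none of the other windows of the 10 genes. GGGCGG, searched on both strands, occurred 3 times before Flt1, 1 time before Kdr and 3 times before Flt4. It occurred 4 times before Vegfb, 2 times before Vegfc, 3 times in the first Vegfa window and 0 times in the second Vegfa window and that of Vegfd, and in 30.5% of all windows. A match is a description of the letters and not of binding.

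Flt1, which binds Vegfa and Vegfb, was a blood endothelial transcript. Blood endothelial nuclei had 920, 1700, 1101 and 1504 CPM, and the replicate 2 libraries of both tissues were the higher. Adipocytes had 11.2, 3.62, 4.42 and 14.0, a difference of 7.21 ± 0.42 (log2, adjusted p = 1.25e-07, edgeR). Mural nuclei had 63.3, 122, 72.4 and 148 CPM, above fibroblasts at 19.7, 9.54, 17.0 and 36.7. Within the mural class the signal lay in pericytes, with 70.7, 137, 78.1 and 215 CPM against 14.4, 30.7, 29.5 and 39.2 in smooth muscle nuclei. The pericyte value was 4.90, 4.47, 2.64 and 5.47 times the smooth muscle value. Blood endothelial markers summed to 733 to 874 CPM in mural nuclei, 334 to 464 in fibroblasts and 5364 to 6988 in blood endothelial nuclei. Their part in the mural Flt1 signal was not tested. In lymphatic nuclei of taPVAT, Flt1 was at 146 CPM in replicate 1 and rested on 1 UMI in replicate 2.

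Kdr, the main signalling receptor for Vegfa, was shared by blood and lymphatic endothelium. Blood endothelial nuclei had 336, 526, 416 and 426 CPM and lymphatic nuclei 313, 427, 307 and 271. The lymphatic 95% Poisson intervals were 252 to 383 and 312 to 572 in taPVAT, and 83.6 to 785 and 88.1 to 633 in BAT. Each interval held the blood endothelial value of its library. Nuclei that passed the sorting for both endothelial classes were counted as lymphatic. Blood endothelial markers summed to 4896, 5623, 4524 and 5208 CPM in lymphatic nuclei, and their part in the lymphatic receptor levels was not tested. Kdr in blood endothelial nuclei exceeded adipocytes by 6.14 ± 0.34, mural nuclei by 4.94 ± 0.27 and fibroblasts by 4.93 ± 0.26 (log2 sizes; adjusted p = 8.75e-08, 2.84e-07 and 2.48e-07, edgeR). Arterial nuclei were the lower part of the class, at 228, 240, 222 and 246 CPM against 389, 653, 484 and 470 in nuclei without arterial markers. The arterial value was below the other in 4 of 4 libraries.

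Flt4, the receptor for Vegfc and Vegfd, was the lymphatic member of the family. Lymphatic nuclei had 442, 893, 690 and 488 CPM from 130, 94, 9 and 9 UMIs. The 95% Poisson intervals were 369 to 524, 722 to 1093, 316 to 1310 and 223 to 927. Blood endothelial nuclei had 31.0, 65.3, 25.1 and 68.9 CPM, so the lymphatic level was 14.3, 13.7, 27.5 and 7.08 times theirs. A Flt4 UMI was seen in 49.7% and 78.3% of lymphatic nuclei of taPVAT and in 4.67% and 9.78% of blood endothelial nuclei there. In T or NK lymphocyte nuclei, at median depths of 1316.5 to 1589 UMIs against 1422 to 2152.5 in both endothelial classes, no Flt4 UMI was counted, which allows up to 25.9, 50.3, 16.5 and 53.9 CPM. The blood endothelial level was still above adipocytes, by 6.91 ± 0.30 (log2, adjusted p = 2.43e-08, edgeR), and above mural nuclei by 3.20 ± 0.31 (adjusted p = 1.44e-05). Because blood endothelial nuclei were many more, they held 18.0% and 29.4% of the Flt4 UMIs of the taPVAT libraries and 47.3% and 49.7% of those of BAT, beside 25.9% and 47.7%, and 6.98% and 2.94%, in lymphatic nuclei.

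Tek, the angiopoietin receptor, was carried by blood endothelium with lower levels in lymphatic nuclei and fibroblasts. Blood endothelial nuclei had 505, 452, 567 and 355 CPM. Lymphatic nuclei had 194, 266, 153 and 163, the last pair from 2 and 3 UMIs. Fibroblasts had 70.1, 47.7, 50.3 and 15.5 CPM, adipocytes 5.03, 1.67, 2.56 and 3.71, and mural nuclei 21.8, 1.97, 9.49 and 14.4. The difference between fibroblasts and adipocytes was 3.51 ± 0.33 (log2, adjusted p = 2.26e-06, edgeR), and blood endothelial nuclei were above fibroblasts by 3.45 ± 0.21 (adjusted p = 5.89e-07). Arterial nuclei had the higher Tek level in 4 of 4 libraries, with 666, 506, 737 and 432 against 447, 387, 492 and 342 CPM, a ratio of 1.26 to 1.498. Kdr and Tek therefore had opposite orders between arterial and other blood endothelial nuclei in each library.

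**Figure D3:**
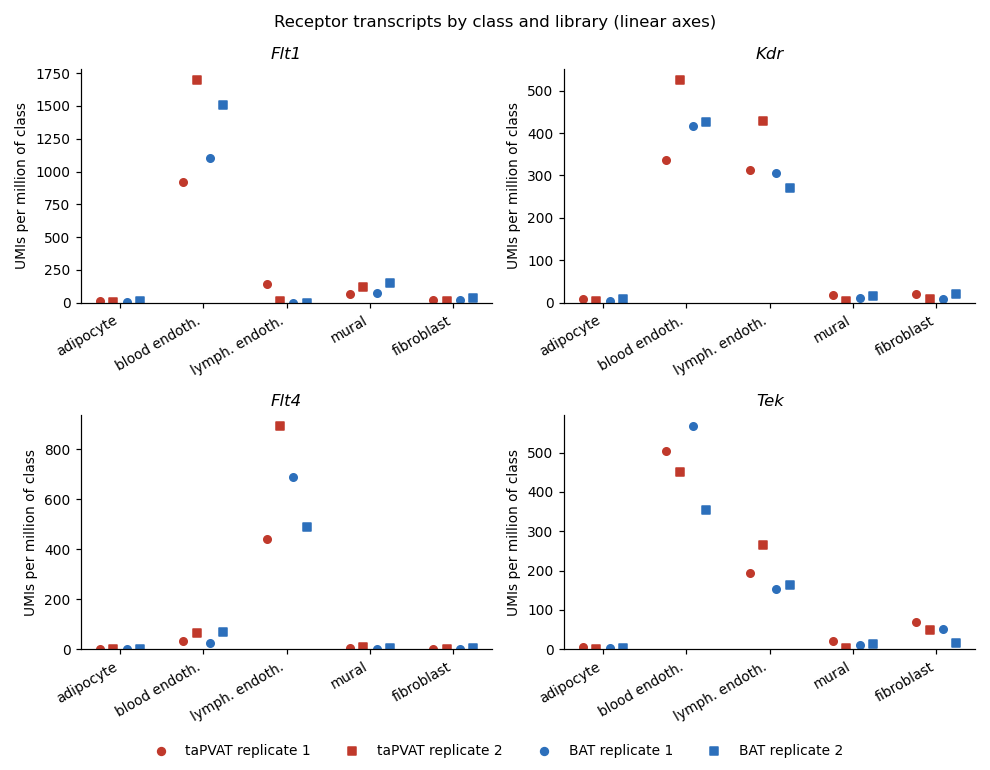
Level of the 4 receptors (UMIs CPM of the class, linear vertical axis from 0) in 5 classes, with 1 point per library, red for taPVAT and blue for BAT, circles for replicate 1 and squares for replicate 2. Flt1 stood out in blood endothelial nuclei (920 to 1700), Flt4 in lymphatic nuclei (442 to 893), and Kdr lay at 271 to 526 in both.

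**Figure D4:**
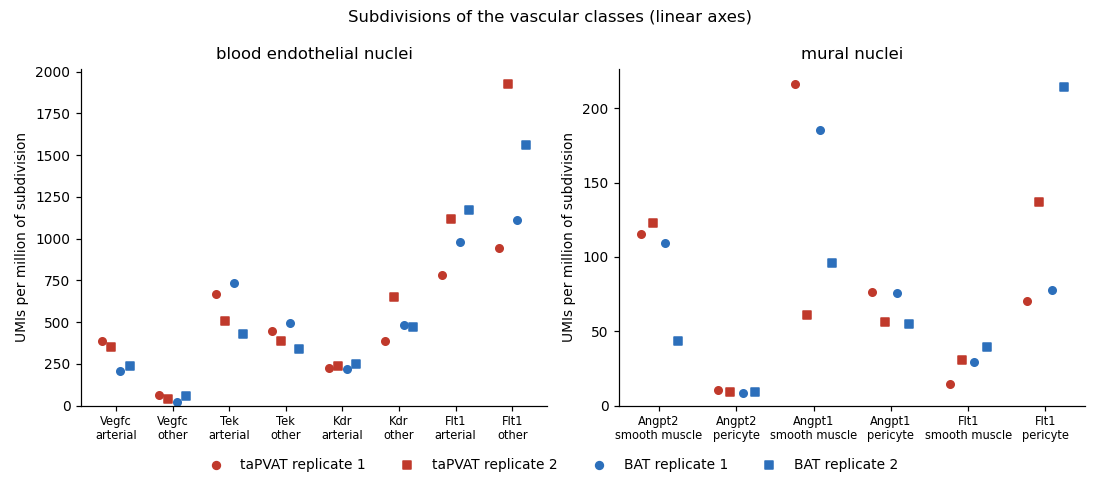
Level in CPM (linear vertical axis from 0) of selected genes in arterial and other blood endothelial nuclei (left) and in smooth muscle and pericyte nuclei (right), with 1 point per library. Arterial nuclei were above the others for Vegfc and Tek and below them for Kdr and Flt1 in all 4 libraries, and Angpt2 was higher in smooth muscle nuclei and Flt1 in pericytes.

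Most of the 10 genes differed between classes, as did much of the transcriptome. In blood endothelial nuclei against adipocytes 6 of 10 were higher and 3 lower past an adjusted p of 0.05 (edgeR), beside 27.4% of all 15160 tested genes called higher and 30.2% called lower. Vegfd was the one member without a call (1.27 ± 0.58, adjusted p = 0.0847), and it passed with nuclei of at least 1000 genes (1.95, adjusted p = 0.0149), with a stricter marker sorting (1.54, adjusted p = 0.0384) or without BAT replicate 2 (1.69, adjusted p = 0.0182). In mural nuclei against adipocytes 7 were higher and 3 lower, beside 20.8% and 23.5% of all genes. The mural call of Kdr (0.98 ± 0.32, adjusted p = 0.0194) was lost without taPVAT replicate 1 (0.92, adjusted p = 0.109), without BAT replicate 1 (0.82, adjusted p = 0.102) without BAT replicate 2 (1.03, adjusted p = 0.0597), with nuclei of at least 1000 genes (0.97, adjusted p = 0.0995) and with no limit on adipocyte markers (0.39, adjusted p = 0.233). In fibroblasts against adipocytes 7 were higher and 2 lower, beside 23.1% and 26.5%. Mural against blood endothelial nuclei gave 1 higher and 5 lower of 9 tested, beside 16.8% of all genes called higher and 16.8% called lower. Fibroblasts against blood endothelial nuclei gave 3 higher and 5 lower, beside 19.2% and 17.4%. Among the last, Vegfa was higher in fibroblasts by 0.74 ± 0.14 (adjusted p = 0.00189, edgeR). That difference fell to 0.06 (adjusted p = 0.718) when nuclei holding many adipocyte transcripts were let into both classes.

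None of the 10 genes passed an adjusted p of 0.05 between taPVAT and BAT, in all nuclei or in any of the 4 fitted classes (edgeR quasi-likelihood test, 2 libraries against 2). Few genes did at all: 0% of 16625 in all nuclei, 0% of 15572 in adipocytes, 0% of 10363 in blood endothelial nuclei, 0.0383% of 7826 in mural nuclei and 0.285% of 9130 in fibroblasts. At an unadjusted p under 0.05 there were 473, 329, 136, 427 and 414 such genes, and DESeq2 called 108, 59, 3, 26 and 44, none of them a member. With 2 libraries a side, a miss does not show that a gene was alike in both fats. The members' libraries did not overlap between tissues for 2 of 10 tested in all nuclei, 1 of 10 in adipocytes, 2 of 10 in blood endothelial nuclei, 0 of 8 in mural nuclei and 2 of 9 in fibroblasts. Over all tested genes these shares were 21.3%, 19.6%, 21.7%, 32.6% and 27.8%. The members' median log2 difference was 0.06 in adipocytes, -0.07 in blood endothelial nuclei, -0.27 in mural nuclei and -0.22 in fibroblasts, against 0.008, -0.007, 0.002 and -0.02 for all genes tested.

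Angpt1 had the lowest unadjusted p of the 10 genes in adipocytes. Its level there was 117 and 58.0 CPM in taPVAT and 232 and 185 in BAT, means of 87.3 ± 41.4 and 208 ± 33.1 (SD, n = 2 each). Both taPVAT libraries lay below both BAT libraries, and the BAT mean was 2.38 times the taPVAT mean. The fitted difference was -1.22 ± 0.37 (log2, SE), with an unadjusted p of 0.0179 and an adjusted p of 1 (edgeR). It ranged from -1.79 without taPVAT replicate 1 to -0.84 without taPVAT replicate 2. In all nuclei together it was -1.1 ± 0.35 (unadjusted p = 0.0231, adjusted p = 1). In the other classes the tissues overlapped. The fitted difference was -0.34 ± 0.35 in fibroblasts, -0.23 ± 0.36 in mural nuclei and -0.32 ± 0.42 in blood endothelial nuclei, with adjusted p of 1 in each (edgeR). The tissue difference of blood endothelial nuclei minus that of adipocytes was 0.83 ± 0.37 for Angpt1 (unadjusted p = 0.0465, adjusted p = 1 in an interaction term), and 0% of 15160 genes passed in that fit. In the adipocyte class mural markers summed to 172 and 155 CPM in taPVAT and 279 and 238 in BAT. Mesothelial markers summed to 219 and 179 against 96.8 and 103. Their part in the adipocyte Angpt1 difference was not tested.

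Vegfa, by contrast, had a small fitted difference in adipocytes, 0.07 ± 0.28 (log2, adjusted p = 1, edgeR), with means of 783 ± 97.1 in taPVAT and 775 ± 42.5 in BAT (SD, n = 2 each). Vegfb gave 0.27 ± 0.30 there and ran from 0.00099 to 0.55 when a library was left out. The fitted differences of the receptors in blood endothelial nuclei were Kdr -0.03 ± 0.33, Flt1 -0.06 ± 0.41, Flt4 -0.09 ± 0.58 and Tek 0.01 ± 0.31. Each of these 4 changed sign when a library was left out, with ranges of -0.42 to 0.28 for Kdr, -0.60 to 0.34 for Flt1, -0.72 to 0.92 for Flt4 and -0.23 to 0.30 for Tek. Vegfa in adipocytes ran from -0.12 to 0.19 in the same way. Mean Kdr was 431 ± 134 CPM in taPVAT and 421 ± 7.105 in BAT (SD, n = 2 each). Vegfc of blood endothelial nuclei was higher in both taPVAT libraries than in either BAT library, 142 ± 1.11 against 91.1 ± 16.7, a fitted 0.57 ± 0.29 with an unadjusted p of 0.0901. This fitted value ran from 0.33 to 0.86 when a library was left out. Vegfd had a fitted 2.91 ± 0.93 in blood endothelial nuclei (unadjusted p = 0.0155, adjusted p = 1), from 17 and 4 UMIs in taPVAT and 3 and 0 in BAT, and was 2.08 without BAT replicate 2. Without BAT replicate 1 the remaining BAT library holds 0 Vegfd UMIs, so its fitted 6.39 depends on the prior count, and without taPVAT replicate 1 Vegfd did not pass the count filter. Fibroblast markers in the blood endothelial class summed to 380 and 336 CPM in taPVAT and 300 and 278 in BAT. Lymphatic markers there summed to 227 and 190 against 156 and 101. Their part in this Vegfd difference was not tested. In the fibroblast class mesothelial markers summed to 747 and 269 CPM in taPVAT and 25.9 and 48.0 in BAT, and lymphatic markers to 190 and 79.2 against 21.4 and 18.3. Their part in the fibroblast tissue differences was not tested. Vegfd in fibroblasts, its main class, differed by 0.16 ± 0.32. Tek of fibroblasts gave 0.74 ± 0.46, with the lowest level in BAT replicate 2, and ran from 0.25 without that library to 1.80 without BAT replicate 1.

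**Figure D5:**
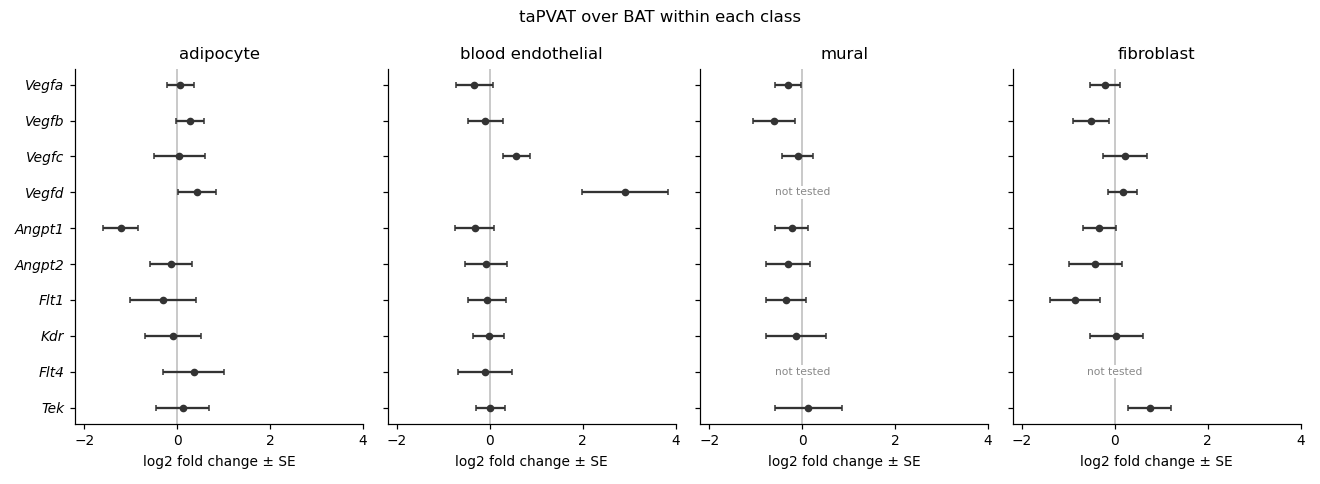
Fitted log2 fold change of taPVAT over BAT (horizontal axis) with its standard error for the 10 genes in 4 classes, from 2 libraries per tissue; genes under the count filter are marked not tested. No gene passed the adjusted threshold; Angpt1 in adipocytes lay at -1.22 and Vegfd in blood endothelial nuclei at 2.91.

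A list of 36 further genes of the pathway was followed, 8 ligands, co-receptors and receptor partners, 10 regulators of ligand transcription, 12 endothelial response genes and 6 inhibitors. Values were read for 35 of them, and Ccbe1 was not analysed here. None passed between taPVAT and BAT: 0 of 32 tested in adipocytes, 0 of 25 in blood endothelial nuclei, 0 of 16 in mural nuclei and 0 of 21 in fibroblasts (edgeR). At an unadjusted p under 0.05 there were 0, 0, 4 and 2, beside 329 of 15572, 136 of 10363, 427 of 7826 and 414 of 9130 of all genes tested. Those with the smallest p are given as values. In adipocytes Nrp2, a co-receptor for Vegfc, had 194 and 206 CPM in taPVAT and 285 and 346 in BAT (-0.61 ± 0.28 log2). Egln1, a prolyl hydroxylase that marks hypoxia-inducible factors for breakdown, had 252 and 282 against 162 and 208 (0.57 ± 0.29). For both genes the tissues did not overlap, as for 19.6% of all genes tested in adipocytes. Plvap and Angpt4 followed at 1.03 ± 0.66 and -1.55 ± 1.02, both from levels of at most 9.01 CPM. Plvap ran from 0.02 without taPVAT replicate 1 to 1.55 without taPVAT replicate 2. Angpt4 moved to -2.43 (adjusted p = 0.0084) without BAT replicate 1 and to 0.55 without BAT replicate 2.

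In blood endothelial nuclei the 4 listed genes with the smallest p were Hey1, a Notch target (1.16 ± 0.50), Egln1 (0.47 ± 0.31), Plvap, the protein of fenestral diaphragms (1.02 ± 0.90), and Arnt, the partner of hypoxia-inducible factors (-0.21 ± 0.28). Hey1 had 10.3 and 16.9 CPM in taPVAT and 6.99 and 4.08 in BAT. Plvap ran from -0.39 without taPVAT replicate 2 to 2.63 without BAT replicate 2. In mural nuclei they were Vhl (1.41 ± 0.50), Notch4 (0.98 ± 0.38), Spry4 (0.87 ± 0.35) and Egln1 (0.71 ± 0.30), each with both taPVAT libraries above both BAT libraries, where the libraries of 32.6% of all mural genes did not overlap in either direction. Smooth muscle nuclei numbered 66 and 15 in taPVAT and 104 and 113 in BAT, beside 403, 213, 262 and 265 pericytes, and the part of this makeup in the mural differences was not tested. In fibroblasts they were Egln3 (-1.61 ± 0.53), Adamts1 (1.64 ± 0.64), Spry2 (1.102 ± 0.54) and Spry4 (0.66 ± 0.37), in a class whose mesothelial and lymphatic marker sums, given above, were higher in both taPVAT libraries. Egln3, which like Egln1 acts on hypoxia-inducible factors, had 7.09 and 4.77 CPM in taPVAT fibroblasts and 15.5 and 21.2 in BAT. Adamts1, an inhibitor of Vegfa, had 20.5 and 23.8 against 2.96 and 12.7. It passed the threshold without BAT replicate 2 (2.88, adjusted p = 0.0262) and was 0.68 without BAT replicate 1 (adjusted p = 0.996). Egln1 had a fitted value above 0 in the 3 classes where it is named, with no test of the pattern, and its fibroblast value is not given here. When a library was left out it ran from 0.32 to 0.80 in adipocytes, 0.11 to 0.72 in blood endothelial and 0.46 to 0.86 in mural nuclei.

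Between classes many genes of the list were called, beside a large called share of all genes. Of the 12 endothelial response genes, 10 were higher in blood endothelial nuclei than in adipocytes and 0 lower (edgeR), with a median of 4.57 (log2) against -0.09 over all tested genes, of which 27.4% were called higher and 30.2% lower. These genes were listed as endothelial and the class was sorted by endothelial markers, so this direction was largely set in advance. Of the 10 regulators of ligand transcription, 2 were higher and 7 lower in blood endothelial nuclei than in adipocytes, with a median of -1.22. In fibroblasts 0 of these 10 were higher and 8 lower than in adipocytes, where 23.1% of all genes were called higher and 26.5% lower. Of the 6 inhibitors, 5 were higher in fibroblasts than in adipocytes and 0 lower, beside those same shares of all genes.

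The genes whose pattern was most like each member were sought over 20 sums (5 classes in 4 libraries) among 11331 genes with at least 500 UMIs, by Pearson's r of log2(UMIs CPM + 1). Points of one library share its depth and points of one class share its markers, so r is a description. The lymphatic sums of BAT rest on 8 and 10 nuclei, so a few UMIs weigh on r there. Vegfb had its highest values in those sums, 76.7 and 54.3 CPM. Vegfa was nearest to Acvr1c (r = 0.93), Ncoa1 (0.92) and Esrrg (0.91). Vegfb was nearest to LOC680039 (0.95), Fbxw5 (0.93) and Mrpl4 (0.93). Vegfc was nearest to Dnajc18 (0.96), Kazn (0.96) and Fam13c (0.95), and Vegfd to Adamts2 (0.95), C7 (0.94) and Ntrk2 (0.94). Angpt1 was nearest to Zfhx4 (0.94), Grb14 (0.93) and Tango6 (0.92), and Angpt2 to Synm (0.88), Ccnd1 (0.88) and Kantr (0.88). Among the receptors Kdr had the closest neighbours, Ptprb (0.99), Kank3 (0.98) and Shank3 (0.98). Ptprb is the phosphatase that acts on Tek, and Shank3 was one of the blood endothelial sorting markers. Flt1 was nearest to Tcf15 (0.96), Gpihbp1 (0.96) and Cabp1 (0.96), of which Tcf15 and Gpihbp1 are capillary genes of fat. Flt4 was nearest to Ptpre (0.97), Klhl4 (0.96) and Tnfrsf11a (0.95), and Tek to Ablim3 (0.97), RT1-T24-4 (0.95) and Atp8a1 (0.95). No member was among the nearest 3 of another.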

How the data were processed

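Single-nucleus RNA was counted in 4 libraries, 2 of taPVAT and 2 of BAT. The deposited values are raw UMI counts per gene and barcode, made with Cell Ranger 7.1.0 per the file headers on build Rnor_6.0 per the submitters' processing notes (annotation release, intron handling and barcode rule: not given in the sources used here). Every deposited barcode had at least 500 UMIs. No label ties a library to its animal, so p-values measure the spread between these libraries, which may be technical.

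Barcodes with at least 500 genes were kept. Doublets were scored with Scrublet (scanpy 1.11.5, expected 0.8% per 1000 barcodes), which called 10.8%, 6.61% and 15.3% in taPVAT replicate 1, taPVAT replicate 2 and BAT replicate 2 and none in BAT replicate 1, where it had failed; there the 6402 highest scores were removed. A nucleus took a non-adipocyte class with at least 3 of its markers, 2 more than its depth predicts, and no second class. The exception was a nucleus that passed as both blood and lymphatic endothelial, which was taken as lymphatic. Adipocyte markers of any such nucleus had to be under 0.6 of the library median, a limit set after seeing the data. The remaining nuclei were adipocytes if adipocyte markers reached 0.6 of that median and no other class exceeded its predicted markers by 1.2. No minimum number of adipocyte markers was asked. Nuclei within each class were summed per library and tested with edgeR 4.0.16 (TMM scaling, low-count filter, quasi-likelihood test, Benjamini-Hochberg over all genes), without pairing replicate numbers for tissues and with library as a term for classes. A class needed 20 nuclei in each library. DESeq2 1.42.0 and other settings were alternatives. The script was tested on simulated counts. Named were all 10 members, though not each in every class, the 4 pathway genes with the smallest p per class (or all that passed), and the 3 genes most similar to each member. Members and lists were chosen with earlier results of these data known. Promoter windows came from RefSeq (GRCr8).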

Additional observations from a re-analysis of the deposited data

Results flagged for a closer look

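Mesothelial nuclei, the surface layer of the periaortic fat, stand outside the 5 classes compared and were found in the taPVAT libraries alone (47 and 18 nuclei, against 0 in both BAT libraries). Their Vegfc level was 92.9 CPM in taPVAT replicate 1 (9 UMIs, 95% Poisson interval 42.5 to 176) and 260 CPM in taPVAT replicate 2 (10 UMIs, 125 to 479). Both values were above the 31.0 and 78.1 CPM that a count of 0 allows in these sums, which is why they are listed. Only Vegfc was put through this rule, and the other members were not screened in these nuclei. The blood endothelial level in the same libraries was 141 and 143 CPM. With so few nuclei no test was run.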

How the results depend on the processing

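The number of genes called between taPVAT and BAT depended on the settings, and the cause was not tested. In all nuclei (0 called) it was 108 with DESeq2, 60 without the low-count filter and 0 to 102 when a library was left out. In adipocytes (0) it was 59, 37 and 0 to 108, and in blood endothelial nuclei (0) 3, 28 and 4 to 35. In mural nuclei (3) it was 26, 110 and 14 to 151, and 0 with no limit on adipocyte markers. In fibroblasts (26) it was 44, 159 and 73 to 167, then 10 with nuclei of at least 1000 genes, 12 without doublet removal and 4 with no limit on adipocyte markers. For the tissue difference in blood endothelial nuclei against that in adipocytes (0) it was 9 without the filter, 3 with at least 1000 genes and 0 to 97 when a library was left out. An arm left with 1 library is assumed to vary like the other.

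With the replicate number as a block, 386 genes were called in all nuclei, 361 in adipocytes, 39 in blood endothelial nuclei, 3 in mural nuclei and 210 in fibroblasts. Angpt1 was then called in all nuclei (-1.14, adjusted p = 0.00217, edgeR) and in adipocytes (-1.28, adjusted p = 0.000127, edgeR). Libraries of the same number deviated together across genes (r = 0.669 in all nuclei, 0.610 in adipocytes, 0.532 in blood endothelial nuclei, 0.232 in mural nuclei and 0.383 in fibroblasts), but the labels do not say that a number marks a shared animal or batch, and 2 pairs do not settle it. Under the block Angpt2 and Flt4 of blood endothelial nuclei turned to 0.082 and 0.048.

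Among 387 values of named genes between tissues, 28 changed sign. The stricter sorting left the adipocyte class unchanged, so its adipocyte values among the 387 repeat the main fit. Vegfd of fibroblasts turned to -0.10 and Angpt2 of blood endothelial nuclei to 0.043 with the stricter sorting. Flt1 turned to 0.091 in blood endothelial and 0.15 in mural nuclei with at least 1000 genes. With no limit on adipocyte markers Flt4 and Tek of blood endothelial nuclei turned to 0.047 and -0.013, and Tek to -0.0027 without the filter. Leaving out a library gave, in blood endothelial nuclei, Angpt2 -0.55 to 0.60, Flt1 -0.60 to 0.34, Kdr -0.42 to 0.28, Flt4 -0.72 to 0.92, Tek -0.23 to 0.30 and Plvap -0.39 to 2.63. It gave Vegfa -0.12 to 0.19 and Angpt4 -2.65 to 0.55 in adipocytes, Angpt1 -0.67 to 0.11 and Vegfc -0.35 to 1.30 in fibroblasts, and Angpt2 -0.91 to 0.30 and Flt1 -0.93 to 0.33 in mural nuclei. Of 489 values of members between classes, 475 kept direction and side, 0 reversed, 7 lost and 7 gained a call. With no limit on adipocyte markers mean levels fell, to 850.0 CPM for Flt1, 286 for Kdr, 290 for Tek and 66.2 for Vegfc in blood endothelial nuclei, 36.1 for Vegfd in fibroblasts, 14.8 for Angpt2 in mural nuclei and 412 for Flt4 in lymphatic nuclei. With at least 1000 genes Vegfc of blood endothelial nuclei rose to 181 CPM from 117. The limit of 5% mitochondrial UMIs was fitted only in all nuclei and adipocytes, and lymphatic nuclei were not fitted. With 8 and 10 such nuclei in BAT, depth limits every lymphatic value there.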
